A study of Homo sapiens with 4 samples.

Results

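FAM208B and the genes of the HUSH silencing complex were followed in HGC27 cells, a human gastric cancer cell line, after knockdown of AARS1, the alanyl-tRNA synthetase. They are 8 of the 14431 genes listed with a value. FAM208B entered because its rise between these same libraries was among the largest, so its values are a description with no test. The other 7 entered by function: FAM208A, MPHOSPH8, PPHLN1, MORC2, SETDB1, ATF7IP and TRIM28. Messenger RNA was sequenced in 4 libraries, 2 named control, with wild-type AARS1 per their genotype label, and 2 named siAARS1, in which a small interfering RNA lowered AARS1. All 4 came from HGC27 cells kept in glucose-free medium with serum and 25 mM lactate, for 24 hours per the labels. The time is uncertain, since a shorter one is also stated for this experiment. By their labels the groups differ in the knockdown only, and no library without lactate was analysed here. Nothing states that the 2 libraries of a group came from separate cultures, so p-values measure only the spread between these libraries, which may be technical.

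HUSH is a nuclear complex that silences transposable elements, integrated viral DNA and some long, intron-poor genes. TASOR, the product of FAM208A, is its scaffold and holds MPP8 (MPHOSPH8), which binds histone H3 trimethylated at lysine 9 (H3K9me3) through a chromodomain, and periphilin (PPHLN1), which binds RNA. MORC2, an ATPase, compacts chromatin for HUSH, while SETDB1 writes H3K9me3 and ATF7IP stabilises SETDB1 in the nucleus. TRIM28, also called KAP1, is the corepressor that links KRAB zinc finger proteins to SETDB1. FAM208B encodes TASOR2, the paralogue of TASOR, a scaffold that can take the place of TASOR beside MPP8 and periphilin.

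The libraries held 30653210 to 33522573 reads, values are CPM, read counts scaled to the size of the library, and 1 read was worth 0.0293 to 0.0324 CPM. AARS1, listed under its older symbol AARS, was at 428 and 417 CPM in control, and in siAARS1 at 292 and 298 CPM. This is a difference of -0.52 on the log2 scale (limma, SE 0.0357, n = 2 per group, adjusted p = 2.52e-11), in the direction the labels give. Of the epithelial markers, KRT18, KRT19 and EPCAM were not among the listed genes, and the 3 of 6 that were listed summed to 30.6 to 30.8 CPM in control and 8.0 to 9.36 CPM in siAARS1. All 4 fibroblast markers were listed, led by COL1A1, and summed to 2805 to 2906 CPM in control and 2098 to 2174 CPM in siAARS1. Within that sum COL1A1 and COL1A2 were lower in siAARS1, while LUM (118 and 125 against 211 and 225 CPM) and DCN were higher. The epithelial markers of a gastric carcinoma were thus low or not listed, and their part in the results was not tested. The 3 listed mesenchymal markers, led by VIM, summed to 5150 to 5209 CPM in control and 4704 to 4814 CPM in siAARS1. VIM and FN1 were lower there, while ZEB1 was higher, with 6.16 and 6.84 against 50.03 and 52.3 CPM. Immune markers reached at most 1.10 CPM in sum, and no endothelial marker was listed.

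Across all 14199 genes tested, 70.7% passed limma at an adjusted p under 0.05, with 32.6% of all genes higher and 38.0% lower in siAARS1, and the median log2 fold change was -0.05. Scaling each library to the same median log2 value moved that median by -0.22, and the higher share of the calls from 46.2% to 28.8%. Fold changes below are on the scale of log2(CPM + 1). In these bulk libraries a change in the make-up of the culture and a change in RNA per cell cannot be told apart.

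Fold changes ran with the GC content of transcripts across all genes. To show base composition, a stretch of coding sequence is given for 3 genes that were higher after the knockdown and for 2 that stayed near their level. Each stretch is 120 bases, and is the first in-frame window whose GC content is closest to that of the whole coding sequence. They were read 5′ to 3′ on the coding strand from GENCODE release 29 on GRCh38, and capitals mark G and C.
FAM208B: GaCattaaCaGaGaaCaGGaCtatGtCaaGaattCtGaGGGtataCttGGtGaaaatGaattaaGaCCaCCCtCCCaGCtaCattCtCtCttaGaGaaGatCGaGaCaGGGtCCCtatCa
FAM208A: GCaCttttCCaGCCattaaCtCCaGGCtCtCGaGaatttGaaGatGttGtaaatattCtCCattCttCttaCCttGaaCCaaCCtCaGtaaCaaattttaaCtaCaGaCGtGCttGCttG
MPHOSPH8: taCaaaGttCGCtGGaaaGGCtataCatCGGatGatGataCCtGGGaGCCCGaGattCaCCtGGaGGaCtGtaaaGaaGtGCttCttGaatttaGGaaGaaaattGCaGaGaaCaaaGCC
MORC2: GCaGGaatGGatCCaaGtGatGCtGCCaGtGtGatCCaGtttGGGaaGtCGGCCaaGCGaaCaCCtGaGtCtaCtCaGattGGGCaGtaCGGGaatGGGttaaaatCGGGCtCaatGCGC
SETDB1: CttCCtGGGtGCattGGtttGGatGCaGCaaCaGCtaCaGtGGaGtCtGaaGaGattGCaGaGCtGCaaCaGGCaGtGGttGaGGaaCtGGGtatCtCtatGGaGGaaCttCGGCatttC
The FAM208B stretch lies in exon 2 at chr10:5709537-5709656 and is 42.5% G and C, beside 42.6% for its whole coding sequence. The FAM208A stretch spans the join of exons 1 and 2 between chr3:56673607-56682676 and is 39.2% G and C. The MPHOSPH8 stretch, in exon 2 at chr13:19642127-19642246, encodes part of the chromodomain and is 44.2% G and C. The 2 genes near their level read richer in capitals: MORC2 is at 53.3% over exons 4 to 6 (between chr22:30946437-30950392) and SETDB1 at 50.8% in exon 2 (chr1:150927724-150927843).

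FAM208B (TASOR2, ENSG00000108021) lies on chromosome 10 from 5684838 to 5763740 on the plus strand. It was at 11.8 and 13.6 CPM in control, which is 402 and 430 reads, and at 114 and 119.96 CPM in siAARS1, or 3519 and 3988 reads. Both siAARS1 libraries were far above both control libraries. The mean went from 12.7 ± 1.25 to 117 ± 4.25 CPM (SD, n = 2), which is 9.23-fold, with a log2 fold change of 3.11 (SE 0.0652). This placed FAM208B at position 3 of 14199, just below STAG2 and SLITRK6, both at 3.20, and just above TEX15 at 3.10 and LTN1 at 3.08. The rule that chose it used these values, so nothing is read from the rank. An antisense gene, AL365356.1, shares 435 of the 10960 exon bases of FAM208B and is not among the listed genes.

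FAM208B is a long gene of low GC content. Its transcript with the longest coding sequence has 8732 bases in 24 exons and a GC content of 41.9%. Its longest coding exon holds 3849 bases, and 99.3% of genes have a shorter one. The genes whose log2 level over the 4 libraries ran most like that of FAM208B were TEX15, LTN1, BCLAF1, TOP2A and RANBP2, by the distance between profiles set relative to each gene's control mean, from 0.071 to 0.161. TEX15, a germ cell protein of transposon silencing, held 5.22 and 6.15 CPM in the control libraries, against 52.8 and 59.6 CPM with siAARS1. TOP2A, the topoisomerase of dividing cells, went from 60.7 to 496 CPM on average. These genes were picked for their likeness and get no test, and their GC content was also low, from 35.1% to 39.2%.

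FAM208A (TASOR, ENSG00000163946), the scaffold of HUSH, lies on chromosome 3 from 56620133 to 56683237 on the minus strand. It held 13.3 and 14.3 CPM in the control libraries, against 66.7 and 70.1 CPM with siAARS1. The groups lay far apart. The mean rose 4.95-fold, from 13.8 ± 0.683 to 68.4 ± 2.46 CPM (± SD, 2 libraries each), or 2.23 on the log2 scale with an SE of 0.0652 (adjusted p = 9.65e-18, limma). FAM208A shares 287 of its 9824 exon bases with CCDC66, which went from 3.40 to 10.1 CPM, and the use of strand in counting is not given in the sources used here. Both TASOR genes thus stood higher after the knockdown.

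MPHOSPH8 (MPP8, ENSG00000196199), the reader of H3K9me3, lies on chromosome 13 from 19633681 to 19673459 on the plus strand. Its control libraries held 17.8 and 17.6 CPM and its siAARS1 libraries 47.0 and 46.7 CPM. Replicates differed by far less than the groups did. The mean rose 2.65-fold, from 17.7 ± 0.194 to 46.9 ± 0.237 CPM (± SD, 2 libraries each), or 1.36 on the log2 scale with an SE of 0.0645 (adjusted p = 3.94e-14, limma).

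PPHLN1 (periphilin, ENSG00000134283), the RNA-binding subunit, lies on chromosome 12 from 42238447 to 42459715 on the plus strand. It held 68.4 and 75.5 CPM in the control libraries, against 94.4 and 92.5 CPM with siAARS1. The groups did not overlap. The mean rose 1.3-fold, from 71.9 ± 5.02 to 93.5 ± 1.34 CPM (± SD, 2 libraries each), or 0.38 on the log2 scale with an SE of 0.0504 (adjusted p = 1.01e-06, limma).

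**Figure D1:**
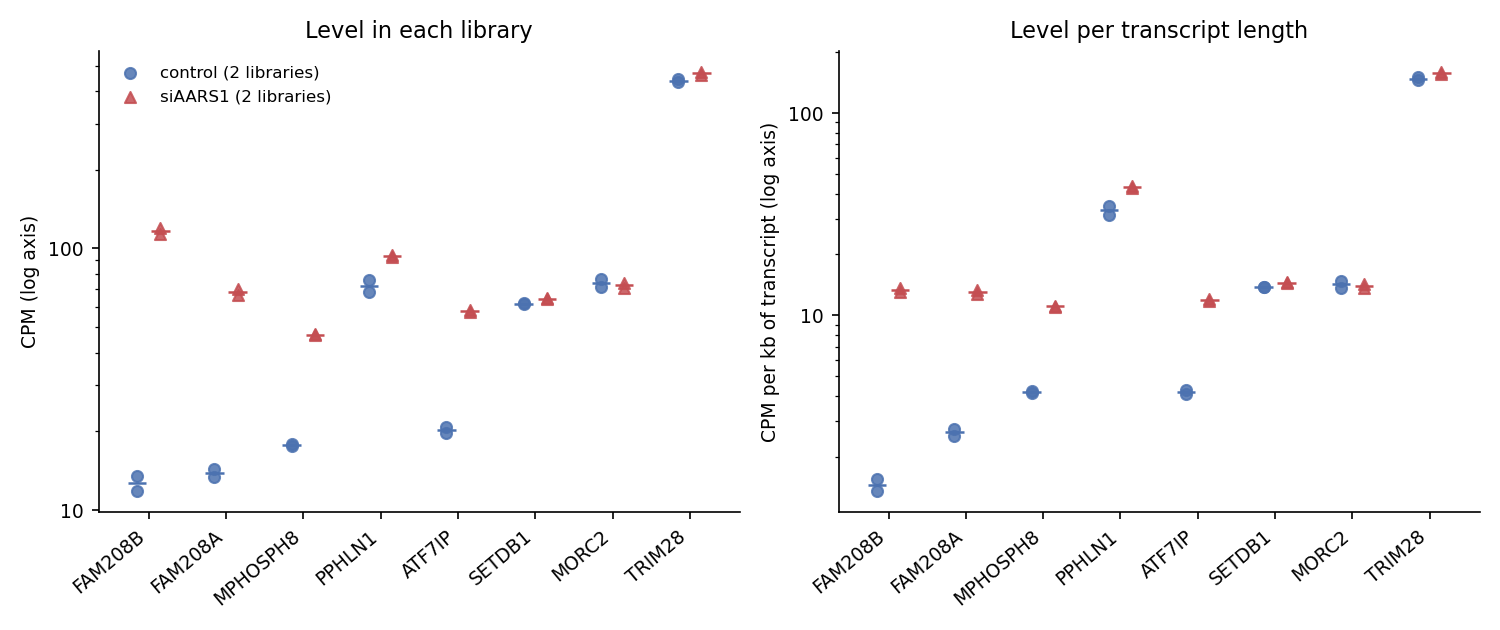
Level of the 8 genes in each library, as CPM on the left and as CPM per kb of transcript on the right, both on log axes. Circles are the 2 control libraries, triangles the 2 siAARS1 libraries and short lines the group means. FAM208B moves from 12.7 to 117 CPM, while MORC2 and SETDB1 stay near 60 to 80 CPM.

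The effectors of HUSH did not all move together. MORC2 (ENSG00000133422, chromosome 22, 30925130 to 30968298, minus strand) held 71.0 and 76.5 CPM in the control libraries, against 73.7 and 70.7 CPM with siAARS1. Its groups overlapped. The log2 fold change was -0.03 (95% interval -0.13 to 0.08, limma adjusted p = 0.614), and it was -0.25 after median scaling and 0.11 after the transcript correction described below. MORC2 shares 1616 of its 6258 exon bases with the antisense gene MORC2-AS1, which is not among the listed genes.

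SETDB1 (ENSG00000143379, chromosome 1, 150926263 to 150964744, plus strand), the methyltransferase, held 61.4 and 61.6 CPM in the control libraries, against 64.6 and 63.8 CPM with siAARS1. The siAARS1 libraries were both slightly higher. The difference did not pass the test, at a log2 fold change of 0.06 (95% interval -0.04 to 0.16, limma adjusted p = 0.270). Its sign turned after median scaling, to -0.16. SETDB1 shares 948 of its 7093 exon bases with CERS2, a ceramide synthase gene.

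ATF7IP (ENSG00000171681, chromosome 12, 14365632 to 14502935, plus strand), the partner that stabilises SETDB1, held 19.8 and 20.7 CPM in the control libraries, against 56.9 and 58.4 CPM with siAARS1. The groups lay far apart, while those of SETDB1 lay close without overlap. The mean rose 2.85-fold, from 20.2 ± 0.666 to 57.6 ± 1.01 CPM (± SD, 2 libraries each), or 1.47 on the log2 scale with an SE of 0.0613 (adjusted p = 4.11e-15, limma).

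TRIM28 (ENSG00000130726, chromosome 19, 58544091 to 58550722, plus strand), the corepressor, had the highest level per kb of the 8 genes in every library. It held 431 and 444 CPM in the control libraries, against 474 and 459.6 CPM with siAARS1. The groups lay close without overlap. Their difference of 0.09 on the log2 scale (SE 0.0356, limma adjusted p = 0.0268) passed the test on the deposited CPM, and turned to -0.13 after median scaling. Without control replicate 1 or siAARS1 replicate 1 it was 0.07 and did not pass.

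Of the 7 genes chosen by function, 5 were called higher, 0 lower and 2 were not called. That is 71.4% called, against 70.7% of all genes tested in either direction and 32.6% in the higher direction. Their groups did not overlap for 6 of 7 genes, against 85.1% of all genes. FAM208A, MPHOSPH8 and ATF7IP were also at least 2-fold higher, 3 of 7, where 10.6% of all genes were. After median scaling, 4 of the 7 were called higher, and MORC2, SETDB1 and TRIM28 lower. The median log2 fold change of the 7 was 0.38, and all 8 genes passed the low-value filter of a mean of 1 CPM in 1 group.

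Levels between genes were compared as CPM per kb of transcript, with the length of the transcript with the longest coding sequence. In control the order was TRIM28 at 148 CPM per kb, PPHLN1 at 33.1, MORC2 at 14.2 and SETDB1 at 13.9, MPHOSPH8 and ATF7IP at 4.18 each, FAM208A at 2.64 and FAM208B at 1.45. MORC2 and SETDB1 overlapped there, as did MPHOSPH8 and ATF7IP. In siAARS1, TRIM28 (158 CPM per kb) and PPHLN1 (43.1) stayed on top, and the other 6 genes lay within 11.1 to 14.5 CPM per kb. Of those, MORC2 overlapped with FAM208B, and FAM208B with FAM208A.

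Within each library the level per kb of FAM208B was 0.530 and 0.568 of that of FAM208A in control, and 1.03 and 1.03 in siAARS1. FAM208B was thus the lower of the TASOR genes in control and level with FAM208A after the knockdown. As a share of both TASOR genes it was 34.6% and 36.2% in control and 50.6% in each siAARS1 library. The ratio of FAM208A to PPHLN1 was 0.0809 and 0.0786 in control and 0.292 and 0.314 in siAARS1. MPHOSPH8 to PPHLN1 went from 0.134 and 0.119 to 0.255 and 0.259, and ATF7IP to SETDB1 from 0.294 and 0.308 to 0.806 and 0.837. The ratios of FAM208B are a description, since its rise chose it. All these ratios are on the deposited CPM and depend on the corrections described below. After the transcript correction FAM208A, at a log2 fold change of 1.25, stayed above PPHLN1, at 0.26. After the region correction FAM208A, at 0.20, was below PPHLN1, at 0.32, and MPHOSPH8 was at 0.66. ATF7IP was then at 0.29 and SETDB1 at 0.02.

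Transcript GC content moved with the fold changes. The rank correlation between GC content and the log2 fold change was -0.65 over 13819 genes and -0.89 over the 7 genes chosen by function, both across genes that share libraries and so with no test. Of the 7, FAM208A (40.4%), ATF7IP (42.8%) and MPHOSPH8 (44.1%) had the lowest GC content and the highest fold changes. PPHLN1, at 45.7%, came next on both. FAM208B, at 41.9%, was chosen for its fold change and adds nothing to this order. SETDB1 (50.9%), MORC2 (51.4%) and TRIM28 (63.7%) were richer in G and C and stayed near their level. The longest coding exon held 3849 bases in FAM208B, 1565 in ATF7IP, 849 in MPHOSPH8 and 800 in FAM208A. In PPHLN1, TRIM28, MORC2 and SETDB1 it ran from 225 to 633 bases. Its rank correlation with the fold change was 0.57 over the 7 genes chosen by function and 0.091 over all genes. Over all genes, the quintile of lowest GC content had a median log2 fold change of 0.82 and the highest one of -0.31.

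**Figure D2:**
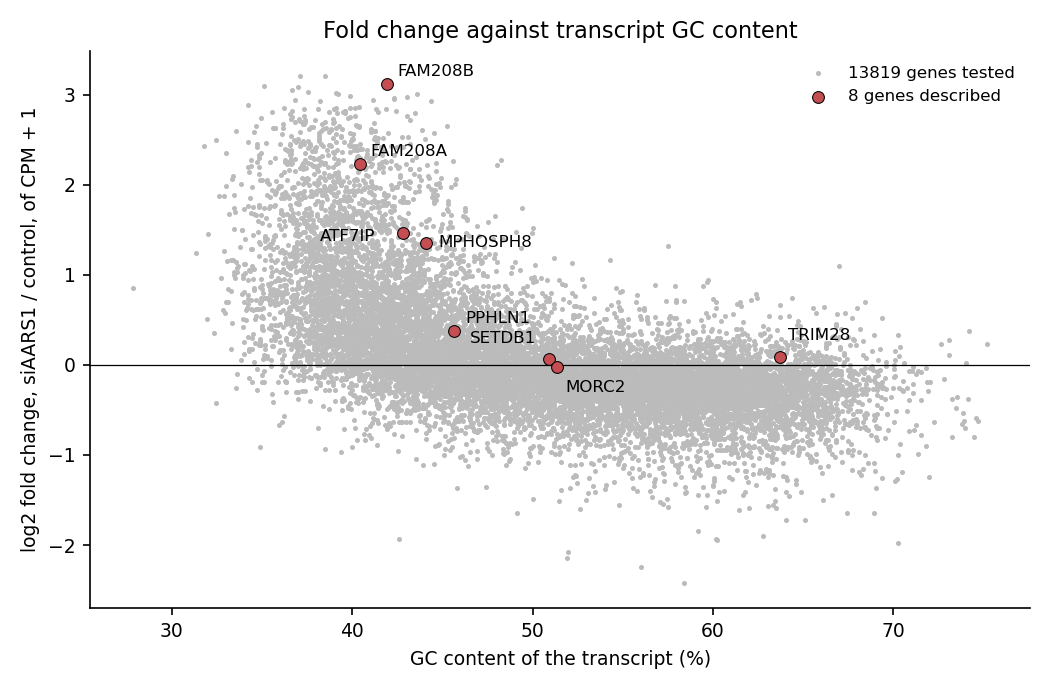
Log2 fold change of CPM + 1, siAARS1 over control, against the GC content of the transcript in percent. Grey points are 13819 genes tested and red points the 8 genes described. The 4 highest of the 8 lie between 40.4% and 44.1% G and C.

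A first correction, called the transcript correction here, took a smooth trend of transcript GC content and length out of each library. It left FAM208B at a log2 fold change of 2.02 and at position 11 of 13819. FAM208A was at 1.25, MPHOSPH8 at 0.96, ATF7IP at 0.88 and PPHLN1 at 0.26, so the direction held for each. TRIM28 was at 0.46, SETDB1 at 0.19 and MORC2 at 0.11, all 3 called higher. The region correction took out a trend of the length and GC content of the coding sequence and the 3′ untranslated region instead. It left FAM208B at 0.94, at position 169 of 11775, MPHOSPH8 at 0.66 and PPHLN1 at 0.32. FAM208A was then at 0.20 (limma adjusted p = 0.00286) and ATF7IP at 0.29 (limma adjusted p = 4.19e-05), below PPHLN1 and TRIM28, the latter at 0.43. MORC2 was called higher at 0.12 (limma adjusted p = 0.0115), and SETDB1, at 0.02 (limma adjusted p = 0.678), was not called. A response of the cells that runs along GC content and a difference in library preparation that does so cannot be told apart here.

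**Figure D3:**
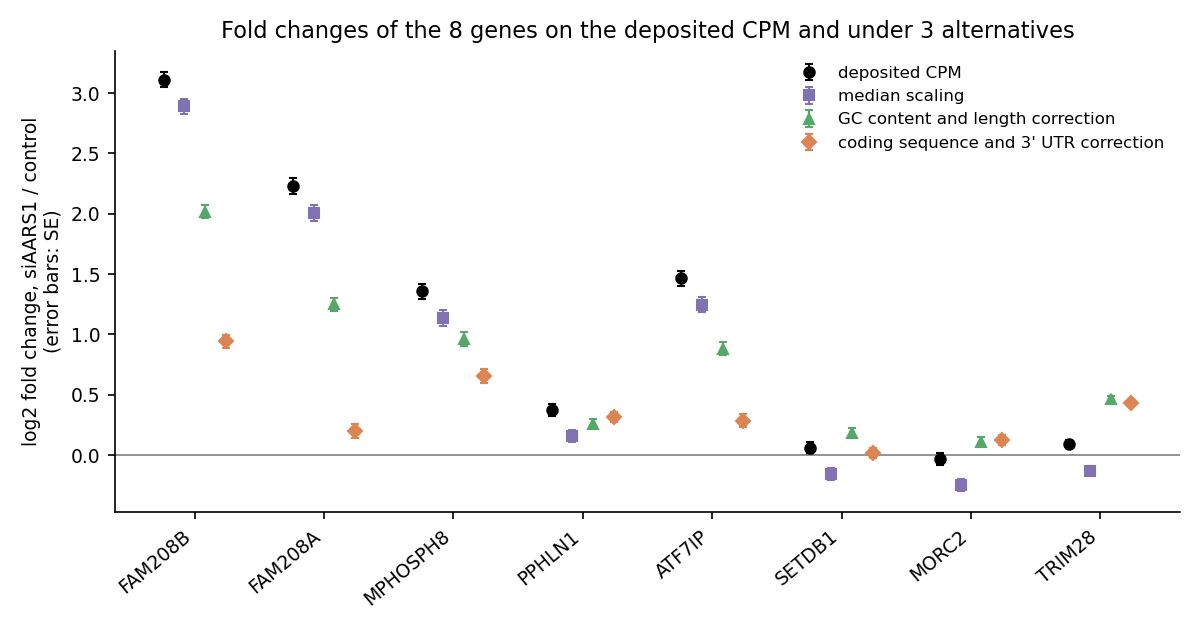
Log2 fold change of each of the 8 genes, siAARS1 over control, on the deposited CPM (circles), after median scaling (squares), after the transcript correction (triangles) and after the region correction (diamonds). Bars are SE. FAM208B goes from 3.11 to 0.94, and MORC2, SETDB1 and TRIM28 lie on either side of 0.

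The genes around FAM208B had smaller fold changes than it did. FAM208B was chosen for its rise, so nothing is read from this difference. Within 250 kb of FAM208B, 7 genes were tested, of which 2 were called higher and 3 lower. Over all genes 32.6% were called higher and 38.0% lower. GDI2, which recycles Rab GTPases, held 297 and 315 CPM in the control libraries, against 410 and 416 CPM with siAARS1, a log2 fold change of 0.43. NET1, an exchange factor for RhoA, was at 0.37. ASB13 was at -0.32, FBXO18, a DNA helicase gene, at -0.15 and IL15RA, the interleukin 15 receptor alpha chain, at -0.68. IL15RA had few reads, 45 and 62 in control and 16 and 25 in siAARS1. Its mean was 1.64 CPM in control and 0.635 CPM in siAARS1, so only control reached the filter of 1 CPM. ANKRD16 at -0.10 (limma adjusted p = 0.255) and RP11-536K7.3 at -0.35 (limma adjusted p = 0.0648) did not pass the test. The directions of NET1, GDI2, ASB13, ANKRD16 and FBXO18 turned in at least 1 of the corrections for GC content.

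Of 12 further partners of HUSH and SETDB1, 6 were called higher, 3 lower and 3 were not called, with a median log2 fold change of 0.28 beside -0.05 for all genes. Over all genes 32.6% were called higher and 38.0% lower, which is the background for each list here. SKIV2L2 (MTREX), the helicase that feeds RNA to the nuclear exosome, rose from 21.5 ± 1.27 to 124 ± 7.11 CPM (± SD, 2 libraries each), or 2.47 on the log2 scale. ZNF638, which brings HUSH to unintegrated retroviral DNA, rose by 2.36, and KIAA1551 (RESF1), a partner of SETDB1, by 2.20. IRF2BP1 and IRF2BP2, each at -0.17, and IRF2BPL, at -0.74, of a family of transcriptional corepressors, fell. IRF2BP1 turned to 0.22 after the transcript correction and to 0.20 after the region correction. IRF2BP2 (-0.20 and -0.22) and IRF2BPL (-0.38 and -0.48) kept their direction in both. After the transcript correction the median of the list was 0.15. After the region correction SKIV2L2 was at 0.76 and ZNF638 at 0.19, and KIAA1551, at 0.13 (limma adjusted p = 0.297), no longer passed.

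Of the 5 tested relatives of MORC2 and TRIM28, 3 were called higher and 1 lower, with a median of 1.63 that went to 0.50 after the transcript correction. MORC3, an ATPase of the same family as MORC2, rose from 3.82 ± 0.710 to 19.1 ± 0.218 CPM (± SD, 2 libraries each), or 2.07 on the log2 scale. TRIM33 rose by 1.88 and TRIM24 by 1.63, both bromodomain proteins of the TRIM28 family, while MORC4 fell by 0.74. The difference between these relatives and MORC2 and TRIM28, near their level on the deposited CPM, was not tested. After the transcript correction TRIM28 was at 0.46 and MORC2 at 0.11, beside the median of 0.50 for the relatives.

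The list of other H3K9 methyltransferases also counts WIZ, a partner protein that is not itself a methyltransferase. The genes of this list were mostly near their level, with 2 of 6 called higher and 1 lower. They had a median of 0.03 that turned to -0.19 after median scaling. Without siAARS1 replicate 1 it was -0.02, without siAARS1 replicate 2 it was 0.11, and with 1 control library left out it was 0.05 or 0.06. SETDB2, a relative of SETDB1, rose by 1.26 and SUV39H2, which writes H3K9me3 at heterochromatin, by 1.21. SETDB2 was at 0.21 after the transcript correction (limma adjusted p = 0.084) and at -0.15 after the region correction. EHMT1, the partner of G9a, was at -0.10 and turned to 0.21 after the transcript correction. Its call was also lost without control replicate 2 (-0.06), siAARS1 replicate 1 (-0.09) or siAARS1 replicate 2 (-0.12).

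Among 15 genes for heterochromatin protein 1 and other H3K9me3 binders and their partners, 10 were called higher and 2 lower, with a median of 0.25. It was 0.43 without control replicate 2, 0.03 after median scaling and 0.11 after the region correction. SMCHD1, an SMC-hinge protein of the inactive X chromosome, rose from 12.1 ± 0.123 to 98.9 ± 7.31 CPM (± SD, 2 libraries each), or 2.93 on the log2 scale. ATRX, a chromatin remodeller that acts with DAXX, rose by 2.69 and turned to -0.16 after the region correction. LRIF1, a partner of SMCHD1, rose by 1.65. After that correction SMCHD1 was at 0.25 and LRIF1, at 0.16 (limma adjusted p = 0.148), no longer passed.

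The erasers of H3K9 methylation split, with 3 of 10 called higher, 4 lower and a median of -0.11. It was -0.32 after median scaling, -0.07 without control replicate 1, and turned to 0.09 after the transcript correction. JMJD1C, of the KDM3 family, rose by 2.58 and KDM3A by 1.17, while KDM4B fell by 0.30 on the log2 scale and turned to 0.12 after the region correction. JMJD1C was at 1.35 after the transcript correction and at 0.32 after the region correction (limma adjusted p = 0.0124). KDM3A was at 0.97 after the transcript correction and has no value in the region correction. Of 11 genes of DNA methylation, 6 were called higher and 2 lower, with a median of 0.13 that turned to -0.09 after median scaling. TET2 rose by 2.76 and TET1 by 2.04, both enzymes that oxidise methylcytosine, and MBD4, a DNA glycosylase, rose by 0.86. After the region correction TET2 was at 0.94, while TET1 at 0.024 (limma adjusted p = 0.817) and MBD4 at 0.15 (limma adjusted p = 0.0682) no longer passed.

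HUSH is known for holding down double-stranded RNA and DNA that cells sense as foreign, so 10 genes of that sensing were read as well. IFIH1 (MDA5) and MB21D1 (cGAS), sensors of that list, were not among the listed genes. Of these 6 were called higher and 3 lower, with a median of 0.31 that went to 0.00 after the transcript correction. TBK1, the kinase downstream of STING, rose by 2.03. TMEM173 (STING) fell from 38.5 ± 1.34 to 15.4 ± 0.694 CPM (± SD, 2 libraries each), or -1.27 on the log2 scale. EIF2AK2 (PKR), a kinase bound by double-stranded RNA, rose by 1.10 and turned to -0.34 after the transcript correction. The list's median turned to -0.16 after the region correction.

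**Figure D4:**
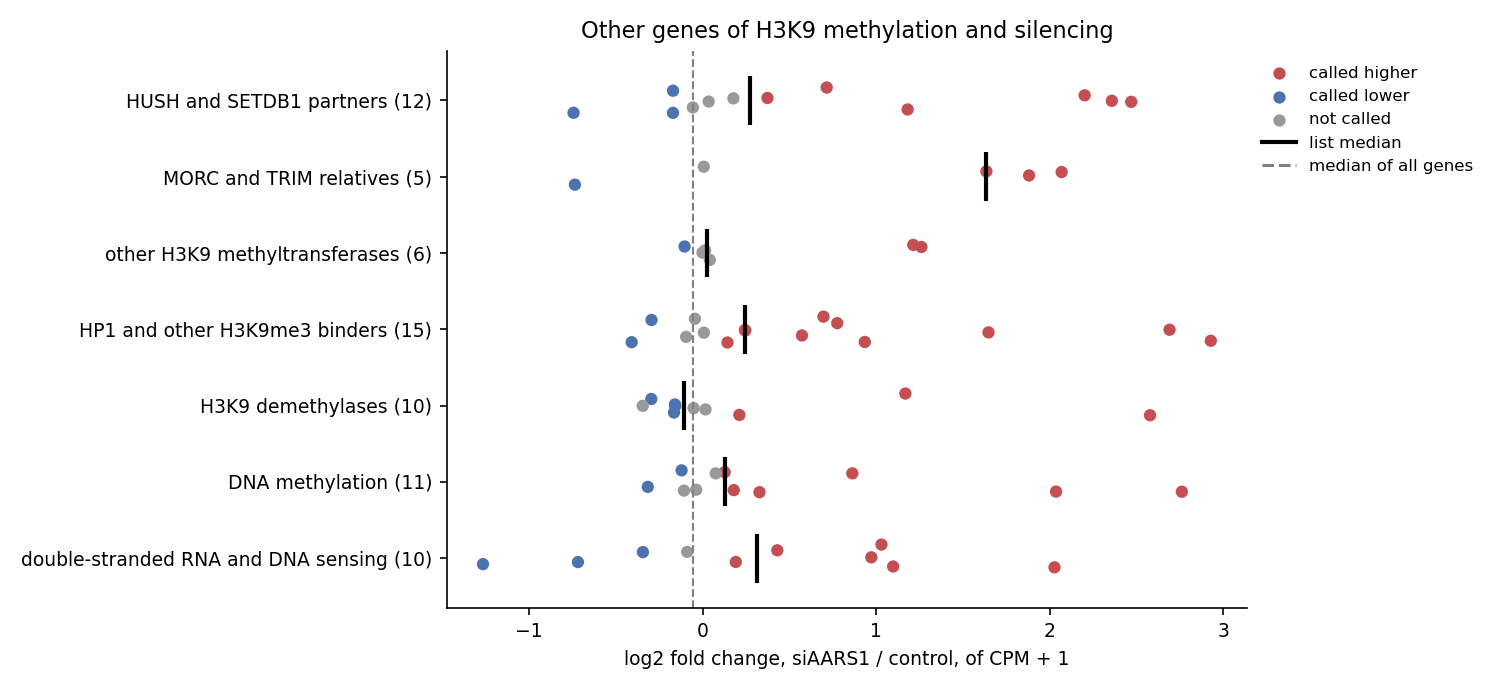
Log2 fold change of CPM + 1, siAARS1 over control, of each tested gene of 7 lists around H3K9 methylation and silencing, with the number of genes in brackets. Colours give the call, solid lines the list medians and the dashed line the median of all genes, -0.05. The medians run from -0.11 to 1.63.

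Gene classes on which HUSH and TRIM28 are known to act were described in the same fit. Of 199 ZNF genes on chromosome 19, where KRAB zinc finger genes lie in clusters, 130 were called higher and 7 lower, with a median log2 fold change of 0.54. That median was 0.23 after the transcript correction and 0.13 after the region correction. The 234 ZNF genes on other chromosomes had 123 called higher and 38 lower, with a median of 0.24. For these it was 0.21 after the transcript correction and 0.15 after the region correction, near the values of chromosome 19. Of 251 protein-coding genes with 1 exon, a form that HUSH is known to target, 40 were called higher and 135 lower, with a median of -0.24. That median was -0.14 after the transcript correction and -0.03 after the region correction. Among genes in the top quintile by their longest coding exon, 44.5% were called higher, beside 32.6% of all genes. FAM208B, chosen for its rise, belongs to that quintile. From the bottom quintile up, the other shares were 28.7%, 34.1%, 30.4% and 31.2%. The median of the top quintile was 0.08, and 0.04 after the region correction, where the bottom quintile was at -0.003.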

How the data were processed

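Messenger RNA of 2 control and 2 siAARS1 libraries of HGC27 was analysed. The authors deposited a table of CPM values per gene. The submitters' processing notes name RSEM 1.3.3 and hg38, while the aligner, annotation and strand setting are not given in the sources used here. All 4 value columns matched the labels and 0 were left out. Of the CPM values 100% came to a whole number of reads within 0.05 read, so reads were recovered for the count tests.

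A gene was kept when the mean of either group reached 1 CPM, which held for 14199 of 14431. The test was limma 3.58.1 with a trended variance in R 4.3.3 on log2(CPM + 1), with Benjamini-Hochberg adjustment over all genes tested and a threshold of 0.05. It was first tested on simulated data. Libraries of a group differed beyond sampling noise, with a chi-square per gene of 3.62 in control and 3.59 in siAARS1. A limit of 3 reads is 0.0880 to 0.0971 CPM and covers counting error only.

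The genes named are the 8 members, AARS1, the 3 called genes of each list with the largest fold change in either direction, the 5 genes most like FAM208B among those whose mean reached 5 CPM in a group, its neighbours within 250 kb, and genes counted by class, with quintiles by longest coding exon. STAG2, SLITRK6, IRF2BP2, IRF2BPL, MORC4, CCDC66, MORC2-AS1, AL365356.1 and CERS2 were named after their values were seen. The members and lists were chosen with earlier results of these data known. Positions, lengths and GC content came from GENCODE release 29 on GRCh38, for 97.2% of listed genes. Trends of GC content were fitted with mgcv 1.9.3. Alternatives used edgeR 4.0.16 and DESeq2 1.42.0 on recovered reads, other scalings, pseudocounts, filters and thresholds, and each library left out.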

Additional observations from a re-analysis of the deposited data

How the results depend on the processing

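FAM208B, FAM208A, MPHOSPH8, ATF7IP and PPHLN1 kept their direction under all 18 alternatives, and all but FAM208B, which has no test, their side of the threshold. MORC2 was called lower after median scaling (-0.25) and upper quartile scaling (-0.12), and higher after the transcript correction (0.11, with or without the replicate block) and the region correction (0.12). Its log2 fold change turned to 0.0077 with edgeR TMM and 0.022 with edgeR RLE and with DESeq2. Leaving out each library in turn gave MORC2 values of -0.082 to 0.023, the latter without control replicate 2. SETDB1 turned to -0.16 after median scaling, -0.029 after quantile normalization and -0.031 after upper quartile scaling, and was called higher with edgeR RLE (0.11) and after the transcript correction (0.19, also with the replicate block). TRIM28 turned to -0.13 after median scaling and -0.00067 after upper quartile scaling. It lost its call at a threshold of 0.01 (0.091), with library size only (0.077), and without control replicate 1 or siAARS1 replicate 1, over a range of 0.070 to 0.11. The cause of these changes was not tested.

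Among other named genes, the transcript correction, with or without the replicate block, turned EHMT1 to 0.21, KDM4B to 0.045, EIF2AK2 to -0.34, NET1 to -0.039, ANKRD16 to 0.19 and FBXO18 to 0.038. The region correction turned SETDB2 to -0.15, EHMT1 to 0.19, ATRX to -0.16, KDM4B to 0.12, EIF2AK2 to -0.51, ASB13 to 0.076, GDI2 to -0.061 and ANKRD16 to 0.22. It also ended the calls of KIAA1551, LRIF1, TET1, MBD4 and FBXO18, and the transcript correction those of SETDB2 and ASB13. EHMT1 lost its call with edgeR TMM and RLE, DESeq2 and a threshold of 0.01, and FBXO18 with DESeq2. IRF2BP1 turned to 0.22 after the transcript correction and to 0.20 after the region correction. Genes called numbered 10032, and 7837 to 11479 under the alternatives. Genes changed at least 2-fold numbered 1741, 776 and 292 after the transcript and region corrections, and up to 2422 with edgeR RLE, with 2404 for TMM, 2357 for DESeq2 and 2322 for a pseudocount of 0.1.

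The replicate numbers pair no libraries in the labels, and deviations of same-numbered libraries correlated at 0.118. With the replicate block, 10389 genes were called, and 5 of the 7 genes chosen by function. Where a library was left out, the lone library of its group was assumed to vary like the other group. With 2 libraries a group, the exact permutation test of a single gene cannot go below p = 0.333, so calls rest on the spread shared across genes.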
